A study of Punica granatum with 4 samples.

Results

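The genes described here had more reads in leaf libraries from pomegranate plants sprayed with 30 or 90 µM abscisic acid (ABA) than in libraries from plants sprayed with 0 or 60 µM, so that their level alternated along the dose series. They were chosen from the read counts themselves. Levels are in CPM, a gene's count per 1000000 counts of its library. For the rule and its ratio, 0.1 was added to each CPM. Ratios between named doses, with their counting intervals, were formed from CPM without it. A gene was a member when its mean CPM over the libraries was at least 2 and the smaller of its levels at 30 and 90 µM was at least 2 times the larger of its levels at 0 and 60 µM. The 100 genes with the highest mean CPM were left out. Of the 27893 features in the table, 17435 met the limits on level, and 64 of these, 0.367%, met the rule. Because all 4 libraries entered the rule, the contrasts it used are given below as a description, with no test.

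The plants were rooted cuttings of Punica granatum, the strain labelled Hongmanao, with the genotype labelled wt and an age of 180 days. They were grown for 90 days, then held in drying soil at 30% to 35% of the water it can hold, and sprayed daily with 5 mL of water (0 µM) or of ABA at 30, 60 or 90 µM. All groups were under drought, the water-sprayed controls included, and no well-watered plants are in the comparison. Each dose was represented by 1 library, and the number of plants behind a library is not given in the labels.

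ABA is the hormone that land plants make as tissue dries. It binds PYR/PYL receptors, which then hold back PP2C phosphatases, so that SnRK2 kinases become active. These kinases act on ion channels of the guard cells, which closes stomata, and on bZIP factors that bind ABA-responsive elements in promoters and switch on protective genes such as those for dehydrins. The members cannot be placed in this pathway here, since the counts and the gene table used for names give LOC identifiers without product descriptions. For the same reason the labelled tissue, leaf, was not checked against leaf markers, and members are ordered below by the size of the step, by their level and by their place among other genes.

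The libraries held between 22118468 and 28366719 counts. A count of 0 allows a level of up to 0.106 to 0.136 CPM (3 counts). The members together took 0.0603% of the counts at 0 µM, with an exact 95% binomial interval from 0.0593% to 0.0614%. Their share at 60 µM was 0.0571% (0.0563% to 0.0580%). It was 0.243% at 30 µM (0.241% to 0.245%) and 0.211% at 90 µM (0.209% to 0.213%). The median member had 3.23 and 3.90 CPM at 0 and 60 µM, against 19.0 and 15.4 at 30 and 90 µM. Over the 17435 genes compared, the median level was 26.8, 25.8, 26.3 and 24.0 CPM at the same doses. In such bulk samples fewer cells of a type and less RNA per cell cannot be told apart, and with 1 library per dose the dose cannot be told apart from the plants or the library. Intervals cover counting error only. The opposite pattern, high at 0 and 60 µM under the same limits, was met by 117 genes (0.671%).

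**Figure D1:**
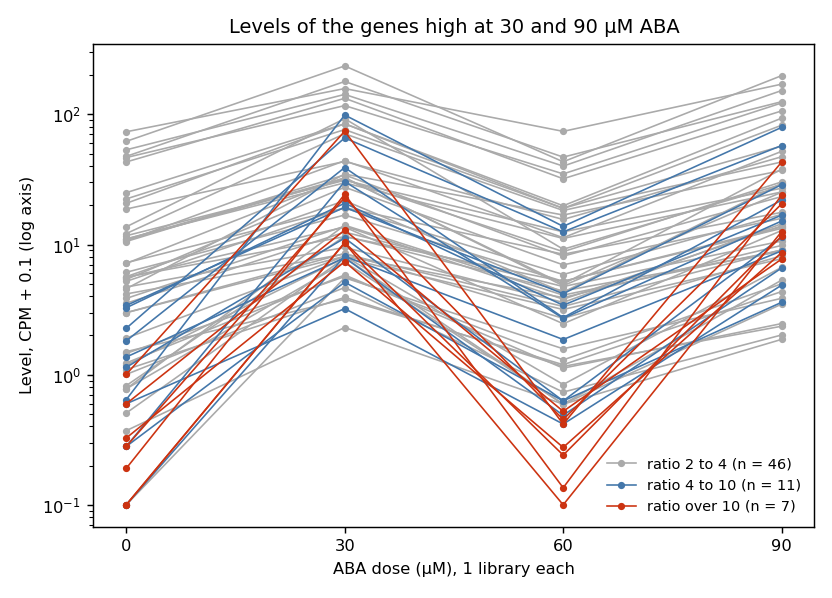
Level of each of the 64 members (CPM + 0.1, log axis) by ABA dose, with 1 library per dose and 1 line per gene, coloured by the ratio of the smaller high level to the larger low level. All lines fall between 30 and 60 µM and rise again at 90 µM because the rule requires it; the 7 genes with a ratio over 10 lie below 1 CPM at both 0 and 60 µM.

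The step between the low and the high libraries ranged from a ratio of 2.01 to 126, with a median of 2.70. It lay between 2 and 2.5 for 28 members, between 2.5 and 4 for 18, between 4 and 10 for 11, and above 10 for 7. In 59 members the exact 95% counting interval of the ratio of 30 to 0 µM lay wholly above 2, and 1.34% of all genes compared met the same rule. The numbers were 59 for 30 against 60 µM (3.21% of all genes), 50 for 90 against 0 µM (2.78%) and 50 for 90 against 60 µM (2.34%). All 4 intervals lay above 2 in 38 members, or 0.218% of the genes compared. The remaining 26 members met the rule by their ratio but had at least 1 interval that reached down to 2 or lower. These shares are not evidence for the pattern, which the rule selected.

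At the top of the range were genes that were nearly silent in the low libraries. LOC116213047 had 0.0904 and 0.0353 CPM at 0 and 60 µM, against 24.2 and 23.8 at 30 and 90 µM. Its level at 90 µM was 263 times that at 0 µM, with a counting interval from 72.6 to 2179, and its levels at 30 and 90 µM differed by a ratio of 1.02 (0.907 to 1.14). LOC116210303 had 0 counts at both 0 and 60 µM, against 10.2 CPM at 30 µM and 12.5 at 90 µM. Its level at 30 µM was 75 times a floor of 3 counts at 0 µM, and the exact 95% counting interval of that ratio began at 60.6. LOC116216027 had 0.181, 22.8, 0.353 and 20.4 CPM at 0, 30, 60 and 90 µM, a limiting step of 57.9 (31.3 to 121) between 60 and 90 µM. In these genes the high libraries were within 1.3 times of each other.

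LOC116187147 had 0 counts at 0 µM and 4 at 60 µM, while it reached 10.3 CPM at 30 µM and 11.5 at 90 µM. LOC116195944 had 0.904 CPM at 0 µM and 0.317 at 60 µM, and 74.1 and 42.9 CPM at 30 and 90 µM. LOC116195505, which overlaps an annotated neighbour, had 0.226, 7.28, 0.176 and 8.57 CPM in dose order. All of them had at most 20 counts in either low library. LOC116200254, which also overlaps another annotated feature, had 0.497 and 0.423 CPM at 0 and 60 µM, and 12.8 and 7.63 CPM at 30 and 90 µM. LOC116189656 had 1.04 and 0.529 CPM in the low libraries and 11.1 and 11.3 in the high ones. Its limiting step, from 0 to 30 µM, was 10.7 (6.97 to 17.1), and its ratio by the rule was 9.83. Over all members, 11 had 10 or fewer counts at 0 µM, 7 had 10 or fewer at 60 µM, and 5 had 10 or fewer in both.

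**Figure D2:**
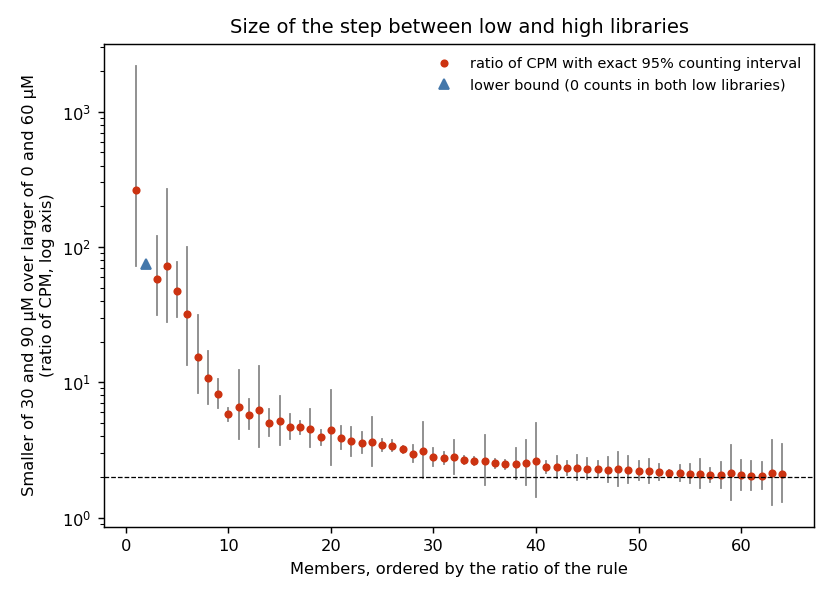
Ratio of the CPM in the lower of the 30 and 90 µM libraries to that in the higher of the 0 and 60 µM libraries (log axis) for the 64 members, in the order of the ratio that chose them. Bars are exact 95% counting intervals, the triangle is the lower bound of LOC116210303 (75), and the dashed line is the 2-fold limit; the intervals of the first 8 members lie above 6.

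Other members kept a high level throughout and differed by a smaller step. CPM is not corrected for transcript length, so it compares libraries and not genes. The member with the highest mean CPM, LOC116193463, had 61.9 and 43.1 CPM at 0 and 60 µM, against 235 and 198 at 30 and 90 µM. Its limiting step, from 0 to 90 µM, was 3.20 (counting interval 3.02 to 3.40). LOC116210197 had 73.3 and 73.9 CPM at 0 and 60 µM, and 158 and 170 CPM at 30 and 90 µM. That gene came close to a plain 2-fold alternation, with a limiting step of 2.13 (2.02 to 2.25) and low libraries whose ratio was 1.01 (0.944 to 1.08). LOC116192383 had 47.4, 179, 46.8 and 125 CPM in dose order. Here too the low libraries were level, with a ratio of 60 to 0 µM of 0.987 (0.910 to 1.07), while the level at 30 µM was 1.43 times that at 90 µM.

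A further set had its lowest level at 60 µM. LOC116209549 had 53.3 and 39.9 CPM at 0 and 60 µM, against 142 and 152 at 30 and 90 µM. LOC116201931 had 46.4, 117, 34.8 and 122 CPM, and LOC116195060 had 43.0, 133, 31.9 and 106 CPM. Their levels at 60 µM were 0.749, 0.749 and 0.743 times those at 0 µM. LOC116203034 had 24.9, 84.5, 19.7 and 93.3 CPM in dose order, and LOC116196208 had 22.3, 76.2, 18.9 and 82.4 CPM. In all 5 of these genes the counting interval of the ratio of 60 to 0 µM lay below 1, from 0.677 to 0.814 for LOC116195060 to 0.747 to 0.958 for LOC116196208. LOC116197543 had 20.6 and 18.9 CPM in the low libraries and 84.5 and 56.9 in the high ones. LOC116211609, also among the 10 members with the highest mean CPM, had the widest gap of these between its low libraries, as described below. By mean CPM, 7 members were at 50 or above, 13 between 20 and 50, 28 between 5 and 20, and 16 under 5.

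**Figure D3:**
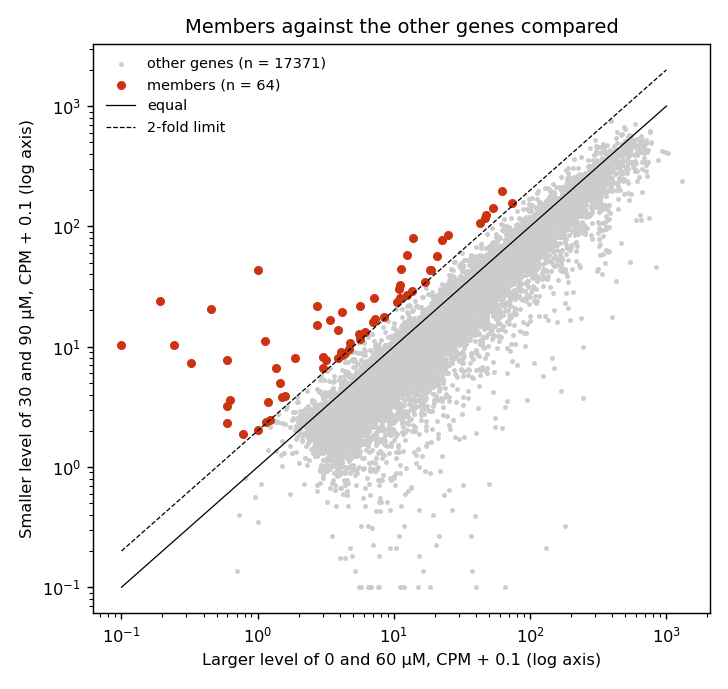
Larger level of the 0 and 60 µM libraries (x axis) against the smaller level of the 30 and 90 µM libraries (y axis), both as CPM + 0.1 on log axes, for the 64 members (red) and the 17371 other genes compared (grey). The members lie on or above the dashed 2-fold line by construction, and some of the other genes lie just under it.

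The comparison of 90 with 30 µM did not enter the rule beyond the limit each had to pass. Of the 64 members, 40 had the lower of their high levels at 90 µM and 24 at 30 µM, and the median difference of 90 minus 30 µM was -0.17 on the log2(CPM + 0.1) scale. The median over all genes compared was -0.11, and 39.5% of those genes were higher at 90 than at 30 µM. Scaling by edgeR's TMM factors raises every gene by 0.11 in this contrast, which gives 35 members lower and 29 higher at 90 µM. By the counting interval, 0 members were more than 2-fold higher at 90 µM (2.16% of all genes) and 2 were more than 2-fold lower (3.78% of all genes, 2.87% with TMM factors, where 2.91% were higher). The members' shares lie near this background.

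Both members that differed between the high libraries had their peak at 30 µM. LOC116207212 had 0.678 and 0.494 CPM at 0 and 60 µM, against 7.23 and 1.77 at 30 and 90 µM, so that the level at 30 µM was 4.09 times that at 90 µM (2.95 to 5.78). LOC116207620 had 13.6, 92.5, 9.10 and 28.9 CPM in dose order, a ratio of 3.20 (2.95 to 3.48). LOC116207620 is among the members nearest the limit, with a ratio of 2.12 by the rule, although its level at 30 µM was 6.82 times that at 0 µM. LOC116192043 went the other way, with 2.20 CPM at 30 µM and 5.23 at 90 µM, but the interval of its ratio, 1.72 to 3.32, reached below 2.

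Between the low libraries, 37 members were lower at 60 than at 0 µM, 26 were higher and 1 had no counts in either. The median difference of 60 minus 0 µM was -0.14 on the log2(CPM + 0.1) scale, against -0.03 over all genes compared. By the counting interval, 9 members were more than 2-fold higher at 60 µM (14.1% of members, 3.12% of all genes) and 1 was more than 2-fold lower (1.56% of members, 2.81% of all genes). A gene whose level at 60 µM stood well above the control could enter only if 30 and 90 µM were higher still. Of the 117 genes with the opposite pattern, 2 (1.71%) were higher and 8 (6.84%) lower at 60 than at 0 µM by the same rule. For those genes, however, 0 and 60 µM are the high libraries. Between their low libraries, 2 (1.71%) were higher and 4 (3.42%) lower at 90 than at 30 µM. With 1 library per dose these shares were not tested.

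The 10 genes that differed between the low libraries are named because they did. LOC116211609 had 0.543 and 13.7 CPM at 0 and 60 µM, against 98.7 and 79.3 at 30 and 90 µM. Its level at 60 µM was 25.2 times that in the control (14.3 to 49.2), yet 5.80 times lower than at 90 µM (5.20 to 6.48). LOC116211610 had 0.181, 30.4, 2.61 and 15.0 CPM in dose order, a ratio of 60 to 0 µM of 14.4 (5.40 to 54.3). LOC116188690 had 0 counts at 0 µM, and 8.02, 1.76 and 8.84 CPM at 30, 60 and 90 µM. Its level at 60 µM was 12 times a floor of 3 counts at 0 µM, with a counting interval of the ratio that began at 10.2. LOC116209626 had 2.17 and 12.4 CPM at 0 and 60 µM, against 65.8 and 57.5 at 30 and 90 µM. Levels of these genes were graded, with 60 µM between the control and the other doses.

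LOC116195504 had 0.407 and 3.07 CPM at 0 and 60 µM, and 7.77 and 7.67 CPM at 30 and 90 µM. LOC116198895 and LOC116205483 were 5.87 and 5.95 times higher at 60 than at 0 µM, and LOC116210105 was 3.74 times higher (3.01 to 4.69). The lncRNA gene LOC116206700 had 0 counts at 0 µM, and 5.45, 1.48 and 3.76 CPM at 30, 60 and 90 µM. LOC116202772 was the member more than 2-fold lower at 60 µM, with 2.89, 8.02, 0.740 and 6.58 CPM in dose order. Over all members the order of the libraries was 60, 0, 90, 30 µM from low to high in 22 genes, 0, 60, 90, 30 µM in 18, 60, 0, 30, 90 µM in 15, and 0, 60, 30, 90 µM in 8. In these orders the control library was the lowest of all in 26 members.

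**Figure D4:**
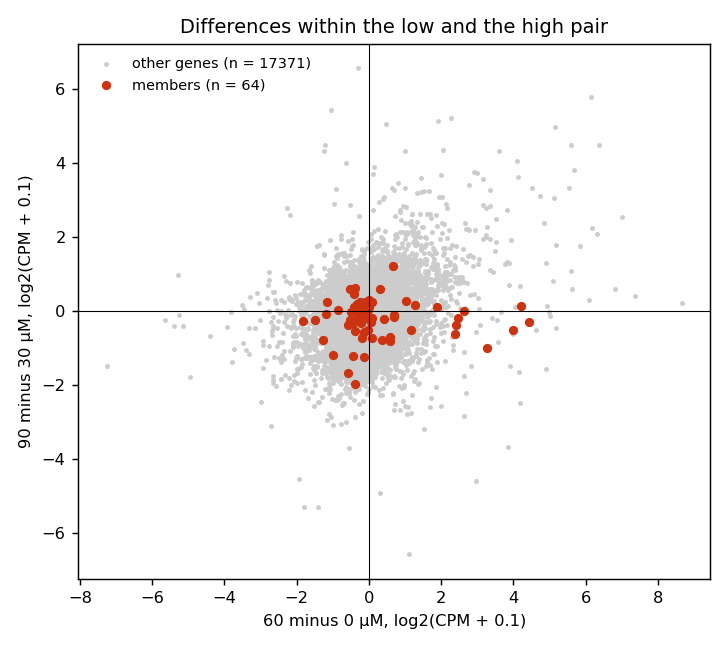
Difference between the low libraries (60 minus 0 µM, x axis) against the difference between the high libraries (90 minus 30 µM, y axis), both on the log2(CPM + 0.1) scale, for the 64 members (red) and the 17371 other genes compared (grey). Members spread further along the x axis, up to 4.42, than along the y axis, where they lie between -1.97 and 1.21.

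By class, 62 members were protein-coding and 2 were lncRNA genes. That was 0.364% of the 17012 protein-coding and 0.488% of the 410 lncRNA genes compared, and none of the 7 rRNA, 4 snoRNA and 2 snRNA features compared was a member. The other lncRNA gene, LOC116205473, had 1.27 and 0.388 CPM at 0 and 60 µM, against 7.82 and 6.51 at 30 and 90 µM. It was 5.14 times higher at 90 than at 0 µM (3.43 to 7.96).

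Members were in part neighbours in the gene order of the RefSeq table. Of the 63 members placed on a chromosome, 8 (12.7%) had another member as the very next gene, and 18 (28.6%) had one within 5 genes. Of the 106 placed genes with the opposite pattern, 6 (5.66%) and 16 (15.1%) met the same conditions with each other. Among the 17371 other genes compared, placed or not, 62 lay next to a member and 281 within 5 genes of one. The member pairs were LOC116195505 with LOC116195504, LOC116194293 with LOC116194311, LOC116205231 with LOC116202903, and LOC116211590 with LOC116210310. The genes of the first pair overlap in the annotation. No source used here gives the strand setting of the counting, so reads of overlapping genes cannot be told apart, and 8 members in all overlap another annotated feature. The treatment of reads with several mapping places is not given either, and near-identical genes were not looked for.

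The members of a pair differed in step. LOC116195505 and LOC116195504, whose levels are given above, had limiting steps of 32.2 and 2.50, and at 60 µM the first was at 0.780 and the second at 7.54 times its level at 0 µM. LOC116194293 had 7.14, 19.0, 5.78 and 16.9 CPM at 0, 30, 60 and 90 µM. Its neighbour LOC116194311 had 2.89, 8.44, 2.61 and 8.09 CPM, and the limiting steps of the pair were 2.37 and 2.79. LOC116205231 had 10.6, 43.9, 11.2 and 51.9 CPM, and LOC116202903 had 11.6, 31.0, 12.4 and 27.0 CPM, with limiting steps of 3.93 and 2.17. LOC116211590 had 1.36, 5.57, 1.20 and 4.89 CPM, while LOC116210310 had 18.6, 43.4, 15.5 and 47.1 CPM, with limiting steps of 3.60 and 2.33. In the 3 pairs other than the first the low libraries were within 1.3 times of each other.

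A longer run lay around LOC116211609. The members LOC116211608, LOC116211609 and LOC116211610 were separated by 1 and by 2 genes with few reads, and the first overlaps the second. LOC116211608 had 1.72 and 2.64 CPM at 0 and 60 µM, against 38.9 and 21.9 at 30 and 90 µM. The genes between them had the same direction at low counts. The lncRNA gene LOC116211612 had 0, 12, 0 and 2 counts, LOC116212184 had 0, 7, 1 and 11, and LOC116211611 had 0, 5, 2 and 11. Before LOC116211608 came LOC116209805, with 7, 25, 2 and 84 counts, and LOC116210002, with 0, 26, 1 and 47. The genes 1 to 3 places outside this stretch had between 0 and 12 counts in each library. Another member, LOC116210073, with 3.30, 19.2, 4.09 and 28.7 CPM, lay a few genes further before it.

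A similar run lay around LOC116195505. From LOC116195947 to LOC116195504 all 5 genes were high at 30 and 90 µM, and 3 of them were members. LOC116195946, between the members, had 0 counts at 0 and 60 µM, 17 at 30 µM and 15 at 90 µM. LOC116195947, at the start of the run, had 0, 37, 0 and 32 counts in dose order. Both were below the limit on mean CPM. LOC116195945, just before the run, had similar counts in 3 libraries, with 152, 173, 90 and 182 counts at 0, 30, 60 and 90 µM.

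**Figure D5:**
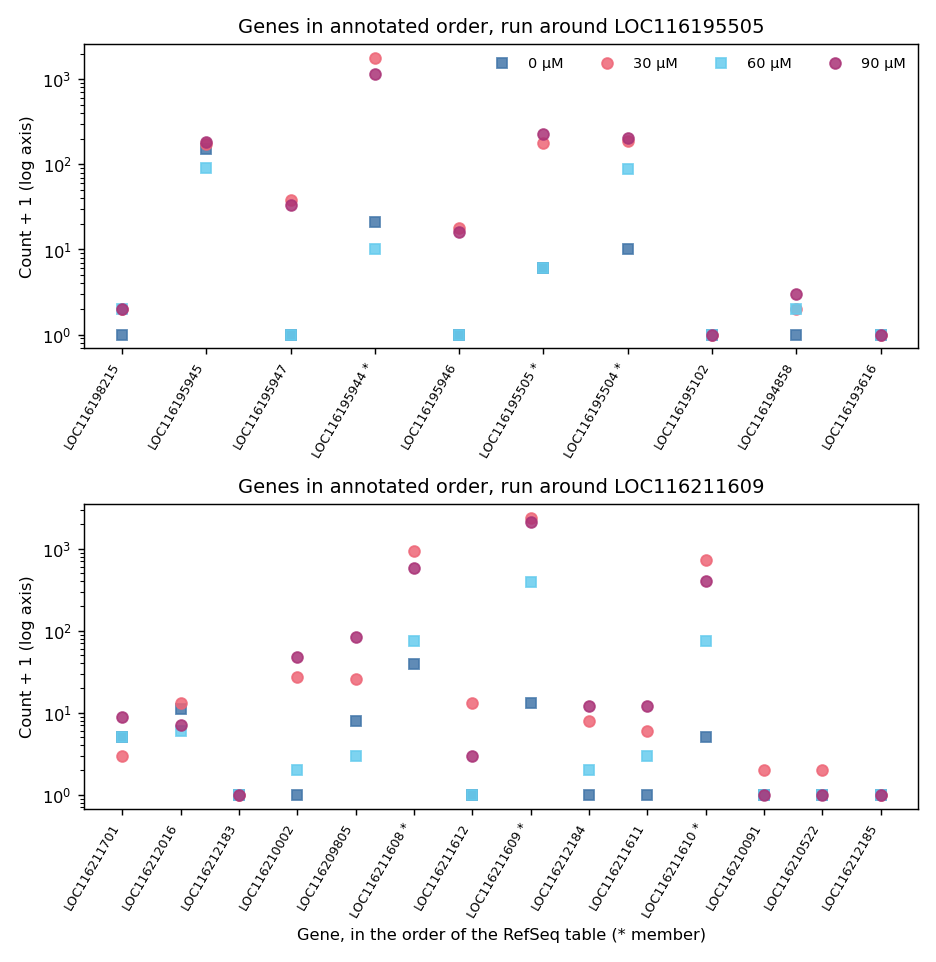
Counts + 1 (log axis) at each ABA dose for the genes of the runs around LOC116195505 (top) and LOC116211609 (bottom). Genes are in the order of the RefSeq table and not to genomic scale. Up to 3 genes are shown on either side, and 1 place before the top run is skipped. Asterisks mark members, squares the 0 and 60 µM libraries and circles the 30 and 90 µM libraries, and equal counts cover each other. The circles lie above the squares for every gene between LOC116195947 and LOC116195504 and between LOC116210002 and LOC116211610.

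Genes next to members that were not members themselves had been assessed by the same rule, on the same 4 libraries, and had not met it. Their values are a description and not independent of the rule. Of 62 such genes with a level within the limits, 36 (58.1%) had a higher mean log2(CPM + 0.1) at 30 and 90 µM than at 0 and 60 µM, against 37.4% of all non-members. The difference was above 1 in 9 of them (14.5%), against 1.25% of all non-members, and below -1 in 1 (1.61%), against 2.94%. Only 1 of the 62 overlaps a member in the annotation and none of the 9 does, which says little about shared reads. Within 5 genes of a member, the difference was above 1 in 13 of 281 genes (4.63%) and below -1 in 7 (2.49%). These 281 include the 62 next genes, and the 13 include the 9, so the share above 1 was lower among the genes further off. No test was made of these shares, since neighbouring genes are not independent and there is 1 library per dose.

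The 9 neighbours are named because of their values. LOC116206699, a protein-coding gene beside the lncRNA member LOC116206700, had 0 counts at 0 µM and 6.82, 3.10 and 6.21 CPM at 30, 60 and 90 µM. Its profile was like that of the lncRNA gene, and it missed the rule at a ratio of 1.97. Both neighbours of LOC116193463 alternated with it. LOC116198171 had 8624, 21739, 6144 and 20027 counts in dose order, a ratio of 1.93, and LOC116193503 had 613, 1453, 444 and 1343 counts, a ratio of 1.82. LOC116212208, next to LOC116210310, had 66, 125, 58 and 254 counts. LOC116202470, next to LOC116205231, had 49, 100, 32 and 124 counts. LOC116203174, LOC116211875, LOC116214240 and LOC116206579 completed the set. The last of these did not alternate, since its counts of 278 at 0 µM and 249 at 30 µM were close to each other.

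At the limit of the rule the values ran on without a gap. Just inside, LOC116192072 had a ratio of 2.01, with 1.13 and 1.02 CPM in the low libraries and 5.74 and 2.37 CPM at 30 and 90 µM. LOC116192329 also had a ratio of 2.01, with 0.904, 4.57, 0.635 and 1.92 CPM, and LOC116205483 had a ratio of 2.01, with 0.723, 11.5, 4.30 and 8.76 CPM. Just outside, LOC116212148 had a ratio just under 2, with 7.55, 32.4, 10.2 and 20.5 CPM. LOC116194590 had a ratio of 1.99, with 30.5, 60.9, 18.0 and 75.6 CPM, and LOC116206699, described above, had 1.97. Below the limit on mean CPM, a further 63 features had a ratio of at least 2.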

How the data were processed

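RNA sequencing was done on leaf RNA from 4 libraries, 1 per ABA dose. The authors deposited whole-number read counts for each gene, without normalization. Per the submitters' processing notes, the tools were FastQC for read quality, the aligner HISAT2 and featureCounts for counting. The sources used here give no version, genome build, strand setting or treatment of reads with several mapping places. In the table, 0 columns belonged to other samples. Of 27893 identifiers, 27509 matched a symbol in the RefSeq table of ASM765513v2, the 64 members among them. The table was used for names and classes, and its coordinates for gene order and for overlap between annotated features. No build is named for the counts, so order and overlap hold for ASM765513v2 only.

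Counts were divided by the library total to give CPM. Ratios between libraries carry exact 95% conditional binomial (Clopper-Pearson) intervals, and more than 2-fold means an interval wholly above 2 or below 0.5. This is a rule of size, with no p-value, because there are no replicates. Reads amplified by PCR are not independent molecules, so intervals and the floor of 3 counts cover counting error only. edgeR 4.0.16 (TMM) and DESeq2 1.42.0 were used for alternative scaling only. Calculations used Python 3.11.15, pandas, numpy and scipy. The code of the rule was run on simulated counts with counting error only, and with 1 size of step put into genes with many reads. That run does not cover members with few reads, other sizes of step or the spread between plants. Relative to totals, TMM factors raise every gene at 90 µM by 0.14 (log2) against 0 µM and by 0.11 against 30 and 60 µM.

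The members, lists and comparisons were chosen with earlier results of these data known. Named were the 10 members with the largest ratios, the 10 with the highest mean CPM, those next to another member, lncRNA members, those at the limit (3 on either side), and those more than 2-fold apart between 90 and 30 µM. Genes named for other reasons are said to be so. Lists of ABA, drought, tissue marker and other genes rest on product descriptions and could not be filled, and promoter and protein motifs were not analysed here.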

Additional observations from a re-analysis of the deposited data

How the results depend on the processing

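With 1 library per dose, no library could be left out of a dose, and no spread within a dose is known. No paired analysis was possible because each dose has 1 library and no test was made. The number of members was 177 with a 1.5-fold limit, 18 with a 4-fold limit and 127 with no filter on low values, against 64. Under the other 7 alternatives it lay between 48 and 81, and TMM factors gave 79 genes that included all 64. The genes high at 0 and 60 µM numbered 321 with a 1.5-fold limit, 49 with a 4-fold limit, 73 with a mean CPM of at least 5 and 283 with no filter, against 117. With TMM factors they numbered 107, beside 79 members, and with DESeq2 size factors 104, beside 81. The gap between the 2 patterns was thus smaller than with library totals. By point ratios instead of intervals, 64 members passed 2-fold in all 4 contrasts by construction (38 by intervals). By the same ratios, 7 differed between 90 and 30 µM (2 by intervals) and 17 between 60 and 0 µM (10 by intervals). The share of all genes was worked out for intervals only, so the 7 and the 17 have no background beside them. Members beside a member numbered 18 within 5 genes and 13 when the next gene was sought among genes with a level within the limits, against 8. With a mean CPM of at least 5, 0 lncRNA genes were members. The share of neighbours with a difference above 1 was 4.63% within 5 genes, the next genes included, against 14.5% for the next gene. For the next gene it was 11.3% with 1 added to CPM, against 0.933% of all non-members. With TMM factors it was 14.5%, against 1.54%. These alternatives were chosen after the data were seen. Alternatives for promoter motifs were not run, because no sequences were used here. Ratios of genes with fewer than 10 counts in a low library have wide intervals, and depth limits what can be said of their low levels.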

Other observations

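Among the 63 features with a ratio of at least 2 but a mean CPM under 2 were 5 genes of the runs described above, LOC116195947, LOC116195946, LOC116210002, LOC116209805 and LOC116212184. The ratio was 13.0 for LOC116195947 and 8.73 for LOC116210002. Genes of the opposite pattern lay within 5 genes of 3 of the 63 placed members. The share over all genes was not worked out, so this count is not read as a trait of the members. Within 5 genes of LOC116192043, LOC116196818 had 222 and 347 counts at 0 and 60 µM, against 21 and 52 at 30 and 90 µM. Near LOC116195060, LOC116194958 had 76, 15, 182 and 20 counts in dose order, and near LOC116195544, LOC116197848 had 199, 100, 305 and 75 counts. With a mean CPM of at least 2 required, these 3 members had such a gene within 5 places. Below that limit, LOC116214241, the gene next to LOC116214238, had 61, 0, 105 and 0 counts in dose order, and LOC116216037, near LOC116216027, had 29, 7, 34 and 7. Near LOC116210797, LOC116210786 had 317 counts at 30 µM and 5, 17 and 1 at 0, 60 and 90 µM.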
